A study of Mus musculus with 18 samples.

Results

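The 10 genes described here carry out antigen presentation by the major histocompatibility complex (MHC) in mouse. They were chosen by symbol, from 55291 gene symbols listed in both deposited count tables: for class I the heavy chains H2-K1 and H2-D1, the light chain B2m, the peptide transporter subunit Tap1 and the transactivator Nlrc5; for class II the chains H2-Aa, H2-Ab1 and H2-Eb1, the invariant chain Cd74 and the transactivator Ciita. All 10 were found in both tables. The study sequenced RNA of 2 organs, pancreas and liver, in Otub2 knock-out and wild-type mice, and its title concerns the pancreatic beta cell; Otub2 encodes a deubiquitinase. WT animals (OTUB2 +/+) carry 2 intact copies, HET (OTUB2 +/-) 1 copy and HOM (OTUB2 -/-) 0 copies. Pancreas gave 3 WT libraries (1 female, 2 male), 5 HET (2 female, 3 male) and 3 HOM (all male), and liver gave 2 WT and 5 HET with sex not stated. The mice were kept under normal conditions and no treatment is named in the labels; age, strain and the kind of knock-out allele are not stated in them. A library's name gives its genotype and replicate number from the labels.

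MHC class I molecules are made by nearly all nucleated cells and show peptides from the cytosol to cytotoxic T cells: a heavy chain pairs with B2m, and the Tap transporter brings the peptides into the endoplasmic reticulum. MHC class II molecules are made mainly by dendritic cells, macrophages and B cells, pair an alpha with a beta chain, and travel with Cd74 to the compartment where they take up peptides for helper T cells. Nlrc5 drives class I genes and Ciita drives class II genes, both through a DNA-bound complex that includes RFX, CREB-family and NF-Y factors, and interferon gamma raises both pathways.

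In the GENCODE annotation of build GRCm38 (mm10) 6 of the 10 genes lie in the MHC on chromosome 17: H2-K1 at 33996017 to 34000347 (minus strand), Tap1 at 34187553 to 34197225 (plus), H2-Ab1 at 34257689 to 34269419 (plus), H2-Aa at 34282744 to 34287823 (minus), H2-Eb1 at 34305867 to 34316674 (plus) and H2-D1 at 35262730 to 35267499 (plus). B2m lies on chromosome 2 at 122147686 to 122153083, Nlrc5 on chromosome 8 at 94434356 to 94527272, and Ciita on chromosome 16 at 10480059 to 10528418, all on the plus strand. B2m lies within Patl2, on the opposite strand, which had 1 count over all livers and 0 over all pancreata. The promoters of 6 members were found in the RefSeq table (GRCm38.p6), and 4 of them are printed because they carry the element the transactivators are known to work through. The H2-D1 window is left out of print because a GENCODE transcript of that gene starts upstream of it. Each sequence is the 250 bases before the RefSeq start, 5′ to 3′ on the gene's strand. Capitals mark TGANG (the core of the X2 box) followed after 15 to 30 bases by ATTGG (the Y box CCAAT on the other strand), and matches to the NF-kB consensus.

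H2-K1, chr17:34000334-34000583 (-): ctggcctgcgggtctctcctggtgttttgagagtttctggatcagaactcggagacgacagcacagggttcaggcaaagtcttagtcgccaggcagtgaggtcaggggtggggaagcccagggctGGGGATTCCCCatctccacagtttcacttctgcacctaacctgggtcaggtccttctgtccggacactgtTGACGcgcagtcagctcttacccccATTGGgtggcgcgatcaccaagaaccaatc
B2m, chr2:122147437-122147686 (+): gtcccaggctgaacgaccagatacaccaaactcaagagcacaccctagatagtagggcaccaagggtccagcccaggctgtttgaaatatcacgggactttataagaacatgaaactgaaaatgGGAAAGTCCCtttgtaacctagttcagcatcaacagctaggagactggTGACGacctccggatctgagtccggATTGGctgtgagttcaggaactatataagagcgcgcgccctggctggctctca
H2-Aa, chr17:34287824-34288073 (-): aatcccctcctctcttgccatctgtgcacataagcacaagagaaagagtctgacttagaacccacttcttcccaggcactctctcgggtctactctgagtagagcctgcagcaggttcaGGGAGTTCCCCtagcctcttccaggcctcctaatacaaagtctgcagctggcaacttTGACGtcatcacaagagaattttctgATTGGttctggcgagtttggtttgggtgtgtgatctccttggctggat
H2-Eb1, chr17:34305617-34305866 (+): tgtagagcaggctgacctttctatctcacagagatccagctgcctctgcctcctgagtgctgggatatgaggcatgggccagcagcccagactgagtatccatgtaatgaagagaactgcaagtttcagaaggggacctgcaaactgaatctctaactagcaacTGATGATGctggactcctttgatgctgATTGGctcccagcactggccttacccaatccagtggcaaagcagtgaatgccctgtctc

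The X2 and Y pair stood in 5 of the 6 member promoters, with 20 bases between the parts in H2-K1, B2m and one of the H2-D1 matches, 21 in H2-Aa, and 22 or 19 in H2-Eb1. Tap1 held no such pair. Over the 32841 promoters of the RefSeq table the same pair was found in 604, or 1.84%; TGANG alone, on either strand, was in 84.8% and CCAAT alone in 33.9%. The NF-kB consensus was found in H2-K1, H2-D1, B2m and H2-Aa, and in 7.25% of all promoters. The interferon response core, GAAA and GAAA with 2 bases between them, was found in B2m only among the 6, and in 2.98% of all. Only this exact form was searched, so its absence does not mean that a promoter lacks an interferon response element. The H2-K1 and H2-D1 promoters matched at 187 of 204 aligned bases (91.7%). These are matches of letters and not measured binding. The tables count the 3′ ends of transcripts, and there H2-K1 and H2-D1 can be told apart: of the 451 overlapping 50-base words in the last 500 bases of H2-K1, 2 were shared with another gene (H2-D1), and of the 451 in H2-D1, 43 were shared with other genes. The other 8 members shared 0.

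Total counts ran from 155201 to 1686234 in liver and from 49502 to 1326541 in pancreas. Liver libraries held their tissue's markers (Alb at 11110 to 33900 CPM, counts per 1000000 of the library total). In pancreas the acinar genes Prss2, Cela2a, Cela3b, Ctrb1, Cel, Amy2a5 and Amy2b were at 0 counts in all 11 libraries, while the acinar gene Clps was present in all 11. HET 11 and HET 16 stood apart from the other pancreata: stomach mucosa genes made up 228900 and 192200 CPM where the remaining 9 had 24.6 to 25680 CPM. Ribosomal protein genes took 5.18% and 5.61% of their counts, compared with 0.216% to 0.745%, and olfactory, vomeronasal and trace amine receptor genes 0.0151% and 0.0252%, compared with 0.242% to 0.728%. Otub2 itself was counted 3, 4 and 3 times in the WT pancreata, 0, 0, 0, 0 and 1 times in HET and 1, 0 and 0 times in HOM (edgeR adjusted p = 0.684 for HET and 1 for HOM against WT). The removed part of the gene is not stated, so counts at its 3′ end are a limited check of the labels. It had 0 to 2 counts in every liver, so no check was possible there.

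Liver expressed class I far above class II. H2-K1, the first heavy chain, had 1476 and 1311 CPM in the WT livers and 1188, 1349, 1337, 877 and 1489 CPM in HET 1 to HET 5. HET 4 was the lowest of the 7 livers and HET 5 the highest, so the WT values fell within the HET range. H2-D1, the other heavy chain, had 651 and 420 CPM in WT and 501, 670, 524, 457 and 712 CPM in HET, again with overlapping groups.

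H2-K1 exceeded H2-D1 in all 7 livers, by 1.92 to 3.12 times. Counts at the 3′ end do not grow with transcript length, so this order of levels was read from CPM without a length scale. Ranked by mean CPM among the 18552 genes with a count in liver, H2-K1 stood at 108, H2-D1 at 271 and B2m at 485. H2-Q10, a secreted class I molecule made by hepatocytes, stood above H2-K1 in every liver, at 1.38 to 2.65 times its level.

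B2m, the light chain that every classical class I molecule needs, varied far more than the heavy chains. It had 322 and 289 CPM in WT, and 426, 553, 239, 60.5 and 266 CPM in HET 1 to HET 5. HET 4 was far below the other 6 livers: its 16 counts gave a 95% Wilson interval of 37.2 to 98.2 CPM, and the next lowest liver, HET 3, had 198 to 288 CPM. The summed heavy chains (H2-K1 and H2-D1) ran only from 1334 to 2201 CPM. B2m counts per heavy-chain count were 0.152 and 0.167 in WT, and 0.253, 0.274, 0.128, 0.0453 and 0.121 in HET. Over the 7 livers the SD was 154 CPM for B2m at a mean of 308, and 209 CPM for H2-K1 at a mean of 1289.

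**Figure D1:**
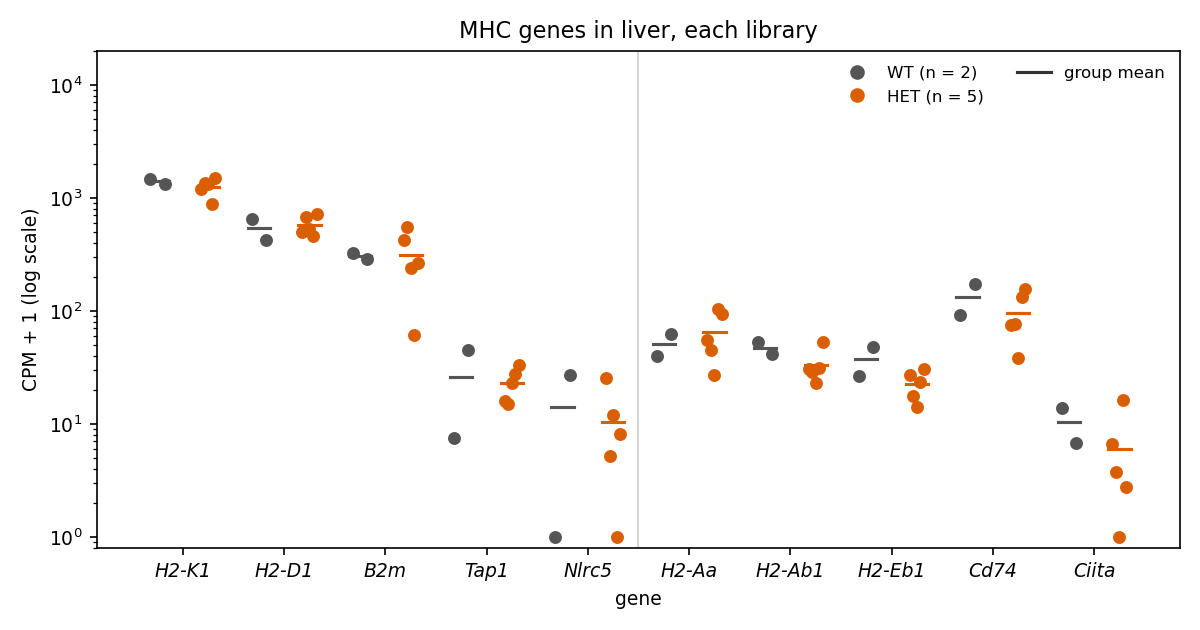
CPM plus 1 (log axis) of the 10 genes in each liver, WT in grey (n = 2) and HET in orange (n = 5), with bars at the group means and class I genes left of the grey line. H2-K1, H2-D1 and most B2m values lie above all class II values, B2m falls to 60.5 CPM in HET 4, and the groups overlap for every gene.

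Tap1, which pumps peptides into the endoplasmic reticulum, was counted 1 and 15 times in the WT livers (6.44 and 43.8 CPM), and had 14.9, 13.9, 21.9, 26.5 and 32.0 CPM in HET. The WT pair bracketed all 5 HET values. Tap1 shares 212 bases with Psmb9 on the opposite strand; the use of strand in counting is not given in the sources used here, and Psmb9 was the more abundant of the pair in liver (224 counts over the 7 livers against 105 for Tap1).

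Nlrc5 was near the limit of these libraries. It had 0 and 9 counts in WT and 13, 3, 5, 0 and 12 in HET, at most 26.3 CPM. Its 0 in WT 1 allows up to 19.3 CPM (3 counts of that library), which overlaps most of the other livers.

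Class II genes in liver were led by Cd74, the invariant chain. Cd74 had 90.2 and 172 CPM in WT and 74.5, 76.2, 37.3, 132 and 154 CPM in HET 1 to HET 5. HET 3 was the lowest liver and WT 2 the highest. H2-Aa, the alpha chain of I-A, had 38.7 and 61.3 CPM in WT and 54.0, 44.4, 26.3, 102 and 93.1 CPM in HET. HET 4 and HET 5 lay above both WT livers and HET 3 below both. H2-Ab1, the I-A beta chain, had 51.5 and 40.9 CPM in WT and 29.8, 27.7, 21.9, 30.2 and 51.6 CPM in HET; 4 of 5 HET were below both WT livers and HET 5 was level with WT 1. H2-Eb1, the I-E beta chain, had 25.8 and 46.7 CPM in WT and 26.1, 16.6, 13.2, 22.7 and 29.7 CPM in HET, all 5 below the WT mean of 36.2 and 2 of them between the WT values.

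These 4 genes summed to 206 and 321 CPM in WT and to 184, 165, 98.7, 287 and 328 CPM in HET. The sum was lowest in HET 3 and highest in HET 5, with both WT livers between. Class I (H2-K1, H2-D1 and B2m) exceeded it by 4.86 times in HET 4 to 21.3 times in HET 3. The 3 chains together gave 0.864 to 1.65 counts per Cd74 count in every liver. Ciita, which switches class II genes on, had 2 and 2 counts in WT and 3, 2, 0, 4 and 3 in HET, at most 15.1 CPM. Ciita shares 25888 bases with Dexi on the opposite strand, which had 190 counts over the livers.

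Summed markers of macrophages and of B cells were lower in HET than in WT liver, but neither sum was tested. Of single genes tested, 11.1% had HET below WT without overlap. The 13 macrophage and Kupffer cell markers, all detected, summed to 823 and 831 CPM in WT and 407 to 819 CPM in HET, without overlap; Clec4f, which marks Kupffer cells, overlapped (161 and 196 CPM in WT, 87.8 to 219 in HET). The 8 B cell markers summed to 49.6 and 110 CPM in WT, from 17 counts in each liver, and to 16.0 to 20.8 CPM in HET, also without overlap. However, Cd79a, Ms4a1 and Pax5 were at 0 in all 7 livers, and Ighm and Igkc made up most of the sum in WT. The pan-leukocyte sum overlapped, at 25.8 and 123 CPM in WT and 62.3 to 181 in HET. Its mean was higher in HET (94.9 CPM) than in WT (74.2). The T and NK cell sum also overlapped, at 6.44 and 14.6 CPM in WT and 3.78 to 10.7 in HET. Of 9 dendritic markers 6 were detected in any liver, summing to 0 to 17.5 CPM, with Itgax, Xcr1 and Cd209a at 0. The part of these cells in the class II values was not tested. In bulk tissue, fewer cells of a type and less RNA per cell cannot be told apart.

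In the comparison of HET with WT liver, 9 of the 10 genes passed the filter on low counts, 0 of the 9 were called at an adjusted p of 0.05, and 0 were under an unadjusted p of 0.05. Over all 4803 genes tested by edgeR's quasi-likelihood test, 0 were called with Benjamini-Hochberg adjustment (0%), 496 had an unadjusted p under 0.05 (10.3%), and DESeq2 called 16 (0.333%), none of them a member. The class I genes showed small fitted differences: H2-K1 averaged 1248 ± 233 CPM over the HET livers (SD, n = 5) and 1393 ± 117 CPM over the WT livers (SD, n = 2). Its fitted log2 fold change, HET over WT, was −0.06 ± 0.28 (SE; adjusted p = 0.961 by edgeR). Its interval of 2 SE either side ran from −0.62 to 0.50. H2-D1 gave 0.20 ± 0.30 (edgeR adjusted p = 0.866).

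B2m was far less certain: its log2 fold change was 0.14 ± 0.67 (SE; edgeR adjusted p = 0.962), and its interval of 2 SE ran from −1.20 to 1.48. Mean B2m was 309 ± 188 CPM over the HET livers (SD, n = 5) and 306 ± 23.5 CPM over the WT livers (SD, n = 2). For Tap1 the log2 fold change was −0.29 ± 0.62 and for Nlrc5 −0.64 ± 1.07 (edgeR adjusted p = 0.907 and 0.880). Without WT 2 the value for Tap1 was 1.80, with 1 Tap1 count in the remaining WT liver. Nlrc5 had 0 counts in that liver, so the prior count sets its fold change there.

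For class II, the fitted log2 fold change was −0.70 ± 0.52 for H2-Eb1 (edgeR adjusted p = 0.674), −0.43 ± 0.44 for Cd74 (0.778), −0.36 ± 0.48 for H2-Ab1 (0.838) and 0.37 ± 0.50 for H2-Aa (0.848). H2-Eb1 had the lowest adjusted p of the 9, with means of 21.6 ± 6.74 CPM for HET (SD, n = 5) and 36.2 ± 14.8 for WT (SD, n = 2), and its interval of 2 SE ran from −1.74 to 0.35. Ciita, fitted without the filter, gave −0.83 ± 1.24 (edgeR adjusted p = 0.770). Of the 9 filtered genes 3 had a log2 fold change above 0, against 52.2% of all genes tested, and their median was −0.29 against 0.03. In 0 of 9 genes did the HET and WT values separate without overlap, against 6.95% of all tested genes with HET higher and 11.1% with HET lower.

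**Figure D2:**
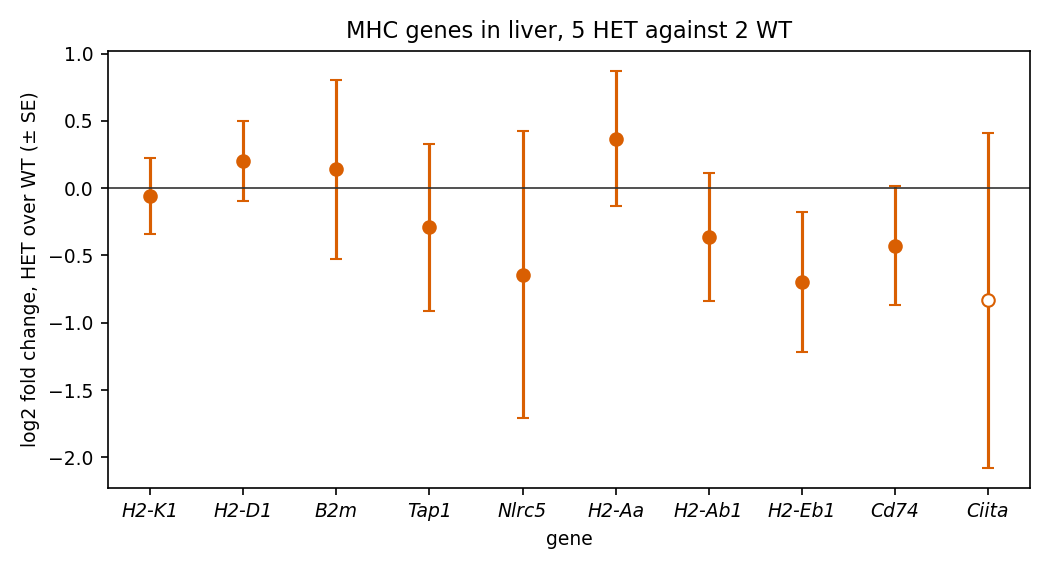
Log2 fold change of HET over WT liver with its standard error for the 10 genes, from edgeR, with Ciita (open symbol) from the fit without a filter on low counts. Error bars of 9 of the 10 genes cross 0 and that of H2-Eb1 does not; the adjusted p-values lie between 0.674 and 0.962.

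The other genes of the pathways were also below the threshold in liver: in each of 8 lists (class I heavy chains, peptide loading, immunoproteasome and PA28, class II chains and chaperones, class II proteases, MHC transcription factors, interferon gamma signalling and interferon-induced genes) 0 genes were called in either direction. Members enter the counts and medians of some lists, so these are not separate from the members' own values. Among those tested were H2-K1 and H2-D1 in heavy chains, B2m and Tap1 in peptide loading and Nlrc5 in transcription factors. Genes named from the lists below were picked for the smallest p in their list. Of all genes tested, 6.95% had every HET above both WT livers and 11.1% had every HET below, so such separation is common. Among class I heavy chains, 6 of the 17 in the table were tested, 3 had a log2 fold change above 0 and the median was 0.10. H2-Q7 gave 0.92 ± 0.44 (edgeR adjusted p = 0.489) and was higher in 4 of 5 HET than in both WT livers. H2-T22 gave 0.51 ± 0.37 (adjusted p = 0.656 by edgeR) and was higher in 5 of 5, but it shares 59.2% of the words at its 3′ end with H2-T10, so its counts are uncertain. Mean H2-Q10 was 2711 ± 585 CPM for WT (SD, n = 2) and 2335 ± 455 for HET (SD, n = 5).

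In peptide loading all 9 genes were tested and 4 had a log2 fold change above 0. Erap1, which trims peptides in the endoplasmic reticulum, had 6.44 and 5.84 CPM in WT and 14.9, 40.2, 30.7, 22.7 and 28.5 CPM in HET. Every HET liver was above both WT livers, which held 1 and 2 counts, and the fitted log2 difference was 2.27 ± 0.79 (edgeR adjusted p = 0.351). Canx, Pdia3 and Tapbpl had edgeR adjusted p-values of 0.590 to 0.677.

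Psme2b, listed with the PA28 proteasome activators, had 58.0 and 152 CPM in WT and 15.4 to 35.1 CPM in HET. All 5 HET were below both WT livers, and the fitted log2 difference was −1.98 ± 0.47 (edgeR adjusted p = 0.177); it is a near-copy of Psme2, so its counts are uncertain. The immunoproteasome and PA28 genes together had 634 to 787 CPM in HET and 760 and 785 in WT. Irf1, an interferon-induced transcription factor of class I genes, had 103 and 75.9 CPM in WT and 22.3, 41.6, 50.4, 41.6 and 47.4 CPM in HET. It was lower in 5 of 5 HET than in both WT livers, and the fitted log2 difference was −1.01 ± 0.42 (adjusted p = 0.416 by edgeR). Jak1, a kinase of the interferon receptors, ran the other way, at 12.9 and 20.4 CPM in WT and 30.2 to 59.6 CPM in HET (log2 fold change 1.45 ± 0.56, edgeR adjusted p = 0.395). Ifi30, the lysosomal thiol reductase of class II processing, had 32.2 and 32.1 CPM in WT and 4.38 to 30.2 CPM in HET, lower in 5 of 5 (log2 fold change −1.04 ± 0.69, edgeR adjusted p = 0.638). Of the class II chains and chaperones 4 of 10 were tested, and these were the members H2-Aa, H2-Ab1, H2-Eb1 and Cd74 described above. Of them 1 had a log2 fold change above 0 and the median was −0.39. In the other lists the medians were 0.07 for class II proteases, −0.43 for MHC transcription factors, 0.73 for interferon gamma signalling and 0.03 for interferon-induced genes, against 0.03 for all genes.

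The class II chain genes varied from liver to liver with Cd74. Over the 7 livers, Pearson's r of log2(CPM + 10) with Cd74 was 0.84 for H2-Eb1, 0.83 for H2-Aa and 0.69 for H2-Ab1, and 0.42 for Ciita. Of the class I genes Tap1 had 0.53, above Ciita, Nlrc5 had −0.00089, H2-K1 −0.14, H2-D1 −0.13 and B2m −0.29. These values describe 7 libraries that differ in depth, and carry no test. Of 2247 genes with a mean of at least 50 CPM, predicted genes (Gm and Rik names) were left out of the ranking by likeness. Among the rest the most like Cd74 were Cflar (r = 0.92), Srsf5 (0.91), Rhou, Clmn and Ogdh (0.90 each), all ahead of the class II genes. The most like B2m were Cp and Ephx2 (0.95 each), G0s2 (0.92), Sord and Fuom (0.90 each). H2-K1 had r = 0.75 with B2m, with 34 of the 2247 genes above it.

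In pancreas all 10 genes were scarce, and 0 of 10 passed the filter on low counts. H2-K1 was counted once in each WT pancreas (12.3, 15.8 and 5.31 CPM in WT 11, WT 12 and WT 16). It had 80.8, 89.6, 70.9, 6.15 and 67.1 CPM in HET 9, HET 10, HET 11, HET 15 and HET 16, from 4, 7, 94, 1 and 45 counts. In HOM 10, HOM 19 and HOM 21 it had 24.4, 0 and 46.6 CPM, from 5, 0 and 6 counts. HET 15 thus lay within the WT range and the other 4 HET above it. HOM 10 and HOM 21 lay between the WT range and the 4 higher HET. HOM 19 could not be placed against WT, because the Wilson interval of its 0 counts reached 75.8 CPM, above the WT range.

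H2-D1 had 37.0, 15.8 and 42.4 CPM in WT, 60.6, 218, 25.6, 43.1 and 64.1 CPM in HET and 24.4, 39.5 and 69.9 CPM in HOM. HET 10 was the highest by far and all groups overlapped. B2m had 37.0, 63.0 and 26.5 CPM in WT, 121, 192, 1.51, 36.9 and 34.3 CPM in HET and 58.5, 59.2 and 46.6 CPM in HOM. Every value but 1 rested on 3 to 23 counts.

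The exception was HET 11, the deepest pancreas library, which held 2 B2m counts of 1326541 (95% Wilson interval 0.414 to 5.50 CPM) beside 94 counts of H2-K1 and 34 of H2-D1. Its ratio of B2m to heavy-chain counts was 0.0156, lower than the 0.261 of HET 16 and the 0.4 to 2.0 of the remaining 9 libraries. Other genes of class I assembly were mixed in the same library. Tapbp (tapasin) had 427 counts and Calr (calreticulin) 1639, while Tap1 had 6 (4.52 CPM) and Tapbpl 0. HET 16 had 310 of Tapbp and 1214 of Calr, and the remaining 9 libraries 0 to 6 of Tapbp and 0 to 7 of Calr. Those 9 libraries held only 49502 to 205103 counts in all, so their raw counts are not on the same footing. HET 11 and HET 16 are the libraries rich in stomach mucosa genes, and the part of those cells in these values was not tested.

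**Figure D3:**
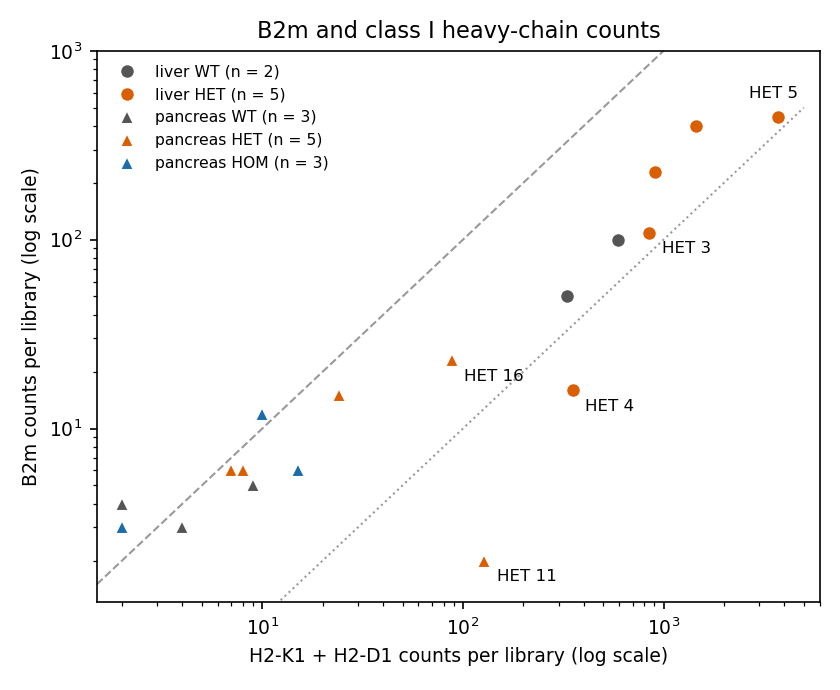
B2m counts against the summed H2-K1 and H2-D1 counts of each library, both on log axes, with circles for liver and triangles for pancreas; the dashed line marks 1 B2m count per heavy-chain count and the dotted line 0.1. Pancreas HET 11 and liver HET 4 lie furthest below the other libraries of their tissue, with 2 and 16 B2m counts.

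Tap1 had 1 count in each WT pancreas, 0 to 6 in HET and 1 or 2 in HOM. Its highest level was 64.0 CPM in HET 10, from 5 counts. Nlrc5 had 0 counts in all WT libraries (3 counts of the group's total would be 9.00 CPM), 2 counts in HET 9 and 1 count in HOM 10.

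Class II chain genes had few counts in pancreas, and most of those of H2-Ab1 were in HET 9. H2-Ab1 had 0 counts in WT (below 9.00 CPM by the same limit), 19 counts in HET 9 (384 CPM), 4 in HET 15, 0 in the other 3 HET, and 1, 0 and 2 in HOM. H2-Eb1 had 8 counts in WT 16 (42.4 CPM) and 0 in the other WT, 7, 1, 12, 2 and 0 counts in HET, at most 141 CPM in HET 9, and 0 in HOM, which allows up to 7.80 CPM. H2-Aa had 0, 2 and 0 counts in WT, 2, 1, 4, 0 and 0 in HET and 1, 0 and 0 in HOM. HET 9 thus held 19 counts of the I-A beta chain and 2 of the alpha chain that pairs with it.

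Cd74 was detected in 10 of 11 pancreata, with 0, 15.8 and 15.9 CPM in WT, 60.6, 115, 13.6, 6.15 and 37.3 CPM in HET and 4.88, 19.7 and 38.8 CPM in HOM. The class II sum averaged 175 ± 257 CPM over the HET libraries (SD, n = 5), and 61.7 without HET 9. The WT libraries averaged 35.2 ± 31.0 CPM (SD, n = 3) and the HOM libraries 29.6 ± 21.6 (SD, n = 3). Class I sums averaged 85.0 ± 10.2 CPM for WT (SD, n = 3), 222 ± 170 for HET (SD, n = 5) and 123 ± 35.0 for HOM (SD, n = 3). The HET libraries, at 86.1 to 499 CPM, overlapped both other groups. The 3 HOM libraries (98.7 to 163 CPM) were all above the 3 WT libraries (74.3 to 94.5 CPM), by a narrow gap. The lowest HOM sum, in HOM 19, rested on 2 heavy-chain and 3 B2m counts, and the highest WT sum, in WT 12, on 2 and 4. Of single genes without a filter, 2.06% had HOM above WT without overlap. The sums were not tested. With TMM library sizes the class I means were 62.0 for WT, 355 for HET and 90.6 for HOM. Without HET 11 and HET 16 the HET means were 283 for class I and 270 for class II.

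Ciita was highest in a library without class II counts. WT 11 held 24 counts of Ciita (296 CPM), and 0 of H2-Aa, H2-Ab1, H2-Eb1 and Cd74. WT 16 held 14 counts (74.3 CPM), and WT 12 held 0. In HET it had 0, 0, 12, 5 and 0 counts, and in HOM 2, 0 and 0. HET 9, with the highest class II sum of 626 CPM, had 0 Ciita counts, an upper limit of 60.6 CPM. The overlapping Dexi gene had 9 counts over all pancreata against 57 of Ciita.

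Markers of class II cells were patchy in pancreas. Of 13 macrophage markers 9 were detected in any library, with Adgre1, Clec4f, Marco and Timd4 at 0, and their sum was 355 to 2315 CPM in WT, 30.2 to 343 in HET and 375 to 463 in HOM. It was highest in WT 11, where all 4 class II chain genes were at 0 (each up to 37.0 CPM). Of 9 dendritic markers 3 were detected and Itgax, Xcr1 and Cd209a were at 0, and of 8 B cell markers 6 were detected, with Cd79a and Cd22 at 0. HET 9, with the highest class II sum, held 17 macrophage marker counts (343 CPM, the highest of the HET pancreata), 8 pan-leukocyte counts (162 CPM), 0 dendritic counts and 1 B cell count. The part of these cells in the class II values was not tested.

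**Figure D4:**
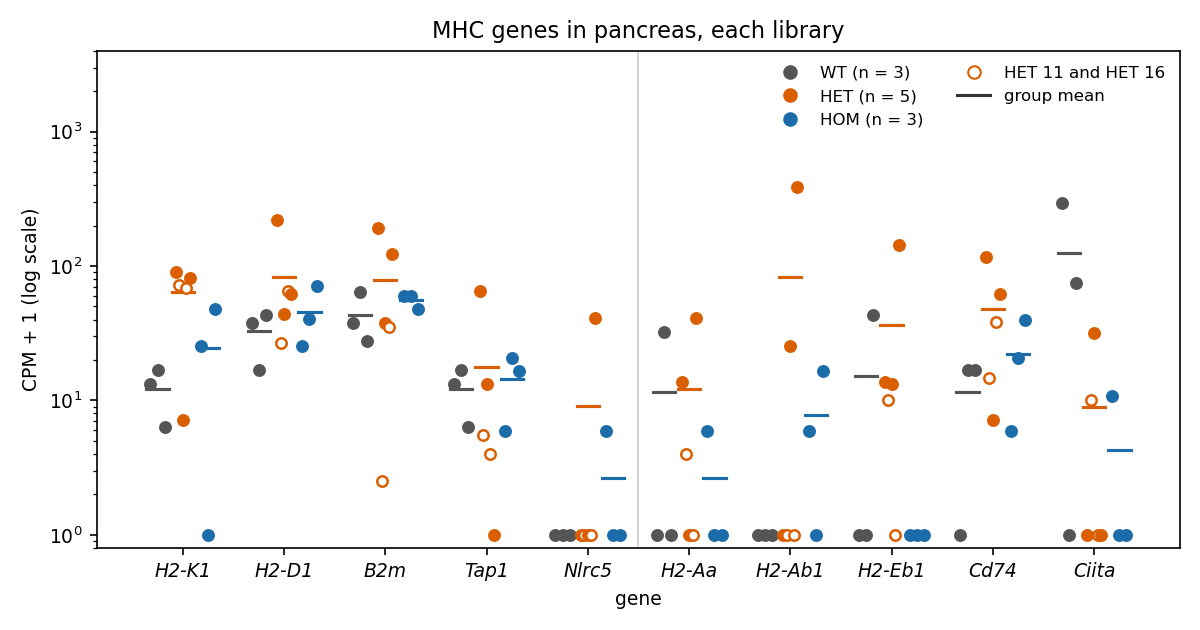
CPM plus 1 (log axis) of the 10 genes in each pancreas library, WT in grey (n = 3), HET in orange (n = 5) and HOM in blue (n = 3), with open symbols for HET 11 and HET 16 and bars at the group means. H2-K1 is at 67.1 to 89.6 CPM in 4 HET libraries and at most 15.8 in WT, where each value is 1 count. H2-Ab1 stands out in HET 9 and Ciita in WT 11, and the groups overlap for every gene.

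None of the 10 genes was called in any pancreas comparison, all fitted without the filter. Against WT, HOM had 0 of 20274 genes called by edgeR at an adjusted p of 0.05 (0%) and 262 under an unadjusted 0.05 (1.29%), and DESeq2 called 183 (0.932%); HET had 0 (0%), 1378 (6.80%) and 126 (0.642%). HOM against HET gave 0 (0%), 1304 (6.43%) and 178 (0.916%). Members made up 0 of each of these counts. The edgeR adjusted p of every member was 1 in HOM against WT, 0.684 to 1 in HET against WT and 0.711 to 1 in HOM against HET.

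H2-K1 averaged 62.9 ± 32.9 CPM in HET (SD, n = 5) and 11.1 ± 5.32 CPM in WT (SD, n = 3). Its difference of HET over WT, 4.30 ± 2.99 (SE) on the log2 scale, was the highest among members with counts in both groups (edgeR adjusted p = 0.684). It was higher in 4 of 5 HET than in every WT library. Its interval of 2 SE ran from −1.69 to 10.3. In HOM over WT it gave 1.69 ± 2.79 and in HOM over HET −2.61 ± 2.82 (edgeR adjusted p = 1 and 0.746). B2m gave 0.51 ± 3.00, 1.60 ± 2.72 and −1.08 ± 2.79 in HOM over WT, HET over WT and HOM over HET, and Cd74 1.28 ± 3.28, 3.25 ± 3.13 and −1.96 ± 3.00.

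Of the 10 genes, 7 had a log2 fold change above 0 in HOM over WT (55.0% of all genes), 8 in HET over WT (53.9%) and 1 in HOM over HET (45.5%). The comparisons share libraries, so these counts are not independent. Both counts against WT include Nlrc5 and H2-Ab1, which had 0 counts in WT. The gene above 0 in HOM over HET was Nlrc5, with 1 count in HOM and 2 in HET, and its mean CPM went the other way (1.625 in HOM, 8.08 in HET). In 0 of 10 genes did the groups separate without overlap, against 2.06% of all genes with HOM above WT and 0.888% below, 0.256% with HET above WT and 0.986% below, and 1.70% with HOM above HET and 0.158% below.

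Few other genes of the pathways could be tested in pancreas: 10 of those in the 8 lists passed the filter, and 0 were called. Calr averaged 9.98 ± 13.0 CPM for WT (SD, n = 3), 645 ± 828 for HET (SD, n = 5) and 17.8 ± 19.6 for HOM (SD, n = 3), the HET mean resting on HET 11 and HET 16 (1236 and 1810 CPM). Its log2 fold change in HET over WT was 8.41 ± 3.50 (edgeR adjusted p = 0.176). Socs1, a feedback inhibitor of cytokine signalling, averaged 220 ± 278 CPM for WT, 376 ± 509 for HET and 774 ± 455 for HOM (SD over the same libraries). Its SD between libraries was larger than its mean in WT and in HET.

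The tissues were deposited as separate tables, so they are set side by side without a test. Mean H2-K1 was 1289 ± 209 CPM over the livers (SD, n = 7) and 38.1 ± 33.7 CPM over the pancreata (SD, n = 11), where it ran from 0 to 89.6 CPM. Ribosomal protein genes took 3.62% to 5.42% of counts in liver and 0.216% to 5.61% in pancreas, so CPM are not on a like footing. Class I in WT averaged 2234 ± 303 CPM in liver (SD, n = 2) and 85.0 ± 10.2 in pancreas (SD, n = 3), and class II 264 ± 81.3 and 35.2 ± 31.0 CPM. H2-K1 exceeded H2-D1 in 7 of 7 livers and in 3 of 11 pancreata, HET 9, HET 11 and HET 16.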

How the data were processed

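RNA extracted with TRI reagent from pancreas (11 libraries) and liver (7) was sequenced by a bulk form of MARS-seq, a protocol that reads transcript 3′ ends, per the labels' protocols. Cutadapt and STAR were used with the mm10 build, per the submitters' processing notes; no source used here names the counting tool, strand use or the collapsing of molecular barcodes. The authors deposited a table of whole-number counts per gene symbol for each tissue; the counts are called corrected, with no word on what was corrected, and the tests below hold only if they still behave as counts.

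Libraries were grouped by the tissue, genotype and sex in the labels, and 0 columns were left unassigned. The labels do not say that samples are separate animals, so p-values measure the spread between these samples, which may be technical. CPM was computed on library totals. edgeR 4.0.16 (R 4.3.3) was run on each whole table with filterByExpr, TMM scaling, a robust quasi-likelihood fit and Benjamini-Hochberg adjustment at a threshold of 0.05: 3719 genes and a sex term in pancreas, 4803 genes in liver. Members outside the filter were fitted over all genes with a count (20274 in pancreas, 18552 in liver). The residual degrees of freedom were 7 and 5, and the biological coefficient of variation was 165.8% and 35.4%. The TMM factors were 0.172 and 0.258 for HET 11 and HET 16 and 1.21 to 1.56 for the remaining pancreata. Intervals of single values are Wilson intervals at 95%; these and the limit of 3 counts cover counting error only. The scripts were tested on simulated data. A fitted fold change of a gene with a group at 0 counts depends on the prior count. No such value is given as the result of a gene, but such values enter the counts of members above 0 in pancreas and the leave-one-out range of Nlrc5 in liver.

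The 10 genes, the 8 pathway lists and the 10 marker lists were chosen with earlier results of these data known. Named genes were the members, Otub2, up to 4 genes of each list with the smallest p, and the 5 genes most like Cd74 and B2m; Tapbp, and markers set beside a result, were named after their values were seen. H2-L, H2-Q8, H2-Q9 and H2-T9 were not in the tables. Alternatives were DESeq2 1.42.0, other scalings and filters, no sex term, only the 2 groups compared, leaving out libraries and, where numbers are shared, the replicate number as a block. Deviations of same-numbered libraries from their group means correlated at −0.03 to 0.07, so the numbers were not taken as pairs. A gene of the lists is included in their counts and is not reported here.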

Additional observations from a re-analysis of the deposited data

Results flagged for a closer look

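Among 24 sets of values from 5 HET libraries (in each tissue the 10 members, the ratio of B2m to the heavy chains and the ratio of H2-K1 to H2-D1), 7 held a single value far from the rest; chance alone would mark about 1 in 20 sets of continuous values, a rate that does not hold for sets near 0 counts, where a lone count is enough. In HET liver it was H2-Ab1, at 51.6 CPM in HET 5 against 21.9 to 30.2 CPM in the other 4 HET livers, although both WT livers had 40.9 and 51.5 CPM. In HET pancreas HET 15 was low for H2-K1, at 6.15 CPM from 1 count, against 67.1 to 89.6 CPM. HET 10 was high for H2-D1, at 218 CPM from 17 counts, and for Tap1, at 64.0 CPM from 5 counts. HET 9 was high for Nlrc5 (40.4 CPM, 2 counts, with the other 4 at 0), for H2-Ab1 (384 CPM, 19 counts) and for H2-Eb1 (141 CPM, 7 counts). HET 9 and HET 10 had 49502 and 78090 counts in all, the fewest of the HET pancreata, so that 1 count was worth more there than elsewhere in the group.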

How the results depend on the processing

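Under every alternative 0 members were called in any comparison, with the lowest adjusted p of a member between 0.412 and 0.824 in liver and at 0.331 or above in pancreas. Counts of all genes called, over the filtered genes unless said otherwise, moved from 0: in HOM against WT pancreas to 12 with DESeq2, 5 with only the 2 groups and 13 without HET 11 and HET 16 (0 to 4 leaving out 1 library, the highest without HET 16); in HET against WT pancreas to 199 with DESeq2, 22 with total counts, 146 with no sex term, 9 without HET 11 and HET 16 and 149 with the replicate block and no sex term (0 to 92 leaving out 1 library, 43 without HET 9 and 92 without HET 15); in HOM against HET to 62 with DESeq2 and 6 without HET 11 and HET 16; in liver to 16 with DESeq2, 57 with no filter, 6 at a mean of at least 10 CPM and 3 with the replicate block (0 to 6 leaving out 1 library; without WT 1, HET 1 or HET 5). The count of members above 0 was 0 in HOM against HET with no sex term (0 to 3 leaving out 1 library) and 2 to 5 in liver (5 without WT 2). With TMM library sizes the pancreas class I sum was 62.0 CPM in WT and 355 in HET. No fit with the block was possible for HOM against WT, which share no replicate number, or HOM against HET, which share 1. Leaving out 1 library at a time, the liver log2 fold change changed sign for H2-K1 (−0.16 to 0.11; 0.10 with no filter), H2-D1 (−0.10 to 0.62), B2m (−0.21 to 0.38), Cd74 (−0.71 to 0.13), Tap1 (−0.83 to 1.80) and Nlrc5 (−1.28 to 5.66, the latter without WT 2, where the remaining WT library has 0 counts and the prior count sets the value), and not for H2-Aa, H2-Ab1 or H2-Eb1. Scaling moved the median of all genes without a filter in pancreas from 0.39 to 0.04 (HOM against WT), 0.43 to 0 (HET against WT) and −0.40 to −0.13 (HOM against HET) with total counts. The causes were not tested. In 9 of the 11 pancreata no member passed 24 counts, so every value there rests on few counts.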
